A study of Oryctolagus cuniculus with 9 samples.

Results

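The cytosolic ribosomal protein genes were examined in the ligamentum flavum of the rabbit, the elastic ligament that joins the laminae of neighbouring vertebrae. The set held every gene row named as a protein of the large or the small ribosomal subunit (RPL or RPS and a number), without the RPS6K kinases, together with RPSA, RPLP0 and RPLP1. It comprised 70 of 23407 named rows: 37 proteins of the large subunit, 25 of the small subunit, 2 of the stalk, and 6 rows of paralogs whose names end in L or L1. RNA was sequenced from 9 libraries of New Zealand white rabbits, all male and 70 weeks old. The 3 Control libraries came from sham-operated animals, the 3 Fused libraries from a spinal level that had been fused with instrumentation, and the 3 ISC libraries from the level where stress concentrates between vertebrae. The labels attach to all 9 samples the same surgery at 18 weeks of age, in which muscle at L3-4 was resected and the levels above and below were fused; the Control samples carry the added label of a sham operation. Nothing in the labels ties a library to an animal or states that replicates are different animals. The p-values therefore reflect only how far these samples spread, which may be technical.

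Each ribosome is built from a fixed number of copies of its proteins, so cells make these proteins in near-equal amounts. In vertebrates most of their mRNAs begin with a 5′ terminal oligopyrimidine tract, a short run of pyrimidines through which the kinase mTOR and the RNA-binding protein LARP1 adjust their translation and stability together. Proteins made in excess are degraded, and free RPL5 and RPL11, with the 5S rRNA, bind MDM2 and so link ribosome assembly to p53. A few members have paralogs with a restricted or stress-related use.

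The libraries held between 1233155 and 1869209 reads in genes. Of 12 ligament markers, 11 had a row and 10 were above 0 in all 9 libraries; TNMD, a marker of mature tendon and ligament cells, was at 0 in 7 libraries. Fused replicates 2 and 3 and ISC replicate 2 carried the most RNA of blood-forming cells: the 12 erythroid markers with a row, of 16, took 0.10% to 0.259% of the reads in Control, 1.64% to 6.91% in Fused and 0.447% to 5.52% in ISC. Among these 12, HBG1, HBG2 and HBZ were at 0 in at least 6 libraries, and 8 were above 0 in every library. In bulk tissue, fewer cells of a type and less RNA per cell cannot be told apart.

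Nearly all of the ribosomal protein genes were strongly expressed. Of the 70 rows, 69 had reads in every library. The exception, RPL10L, a paralog of RPL10 known from the testis of mouse and human, had 0 reads in each of the 9 libraries, which allows up to 3 reads, or a scaled value of 2.40 to 3.58. Values are read counts scaled by the authors to a common library size. The 68 genes with a mean value of 10 or more had a median level of 1718 per kilobase of the gene row, with the middle 50% between 1074 and 2286. On this scale RPS12, a small-subunit protein, stood first with 4185 ± 1102 per kilobase (SD, n = 9). RPL23A, which lies at the exit of the tunnel for the growing protein, followed with 4052, RPL35A with 3838, RPS24 with 3066 and the X-linked RPS4X with 2843 per kilobase. The SD over libraries was 1195 for RPL23A, 1025 for RPL35A, 690 for RPS24 and 771 for RPS4X. These SDs include any swing that the genes share between libraries, and the genes were not compared within libraries, so their order was not tested.

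The lowest levels per kilobase belonged mainly to the paralogs. RPL3L, the striated-muscle paralog of RPL3 in human and mouse, had a mean of 3.89 per kilobase. RPL26L1 had 57.5, RPL7L1 68.9, RPS27L 130 and RPL22L1 223 per kilobase. A single member that is no paralog lay in the same range: RPL38, a large-subunit protein needed for the translation of Hox mRNAs in mouse embryos, had 19.6 per kilobase. Its row lies on unplaced scaffold Un0210:226721-230529 of oryCun2, is 1141 bases long and held 22.6, 12.0 and 19.1 in Control, 34.8, 15.1 and 38.3 in Fused, and 26.8, 19.1 and 13.0 in ISC (scaled values, replicates 1 to 3). RPL18 with 440 and RPL15 with 470 per kilobase followed above the paralogs.

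**Figure D1:**
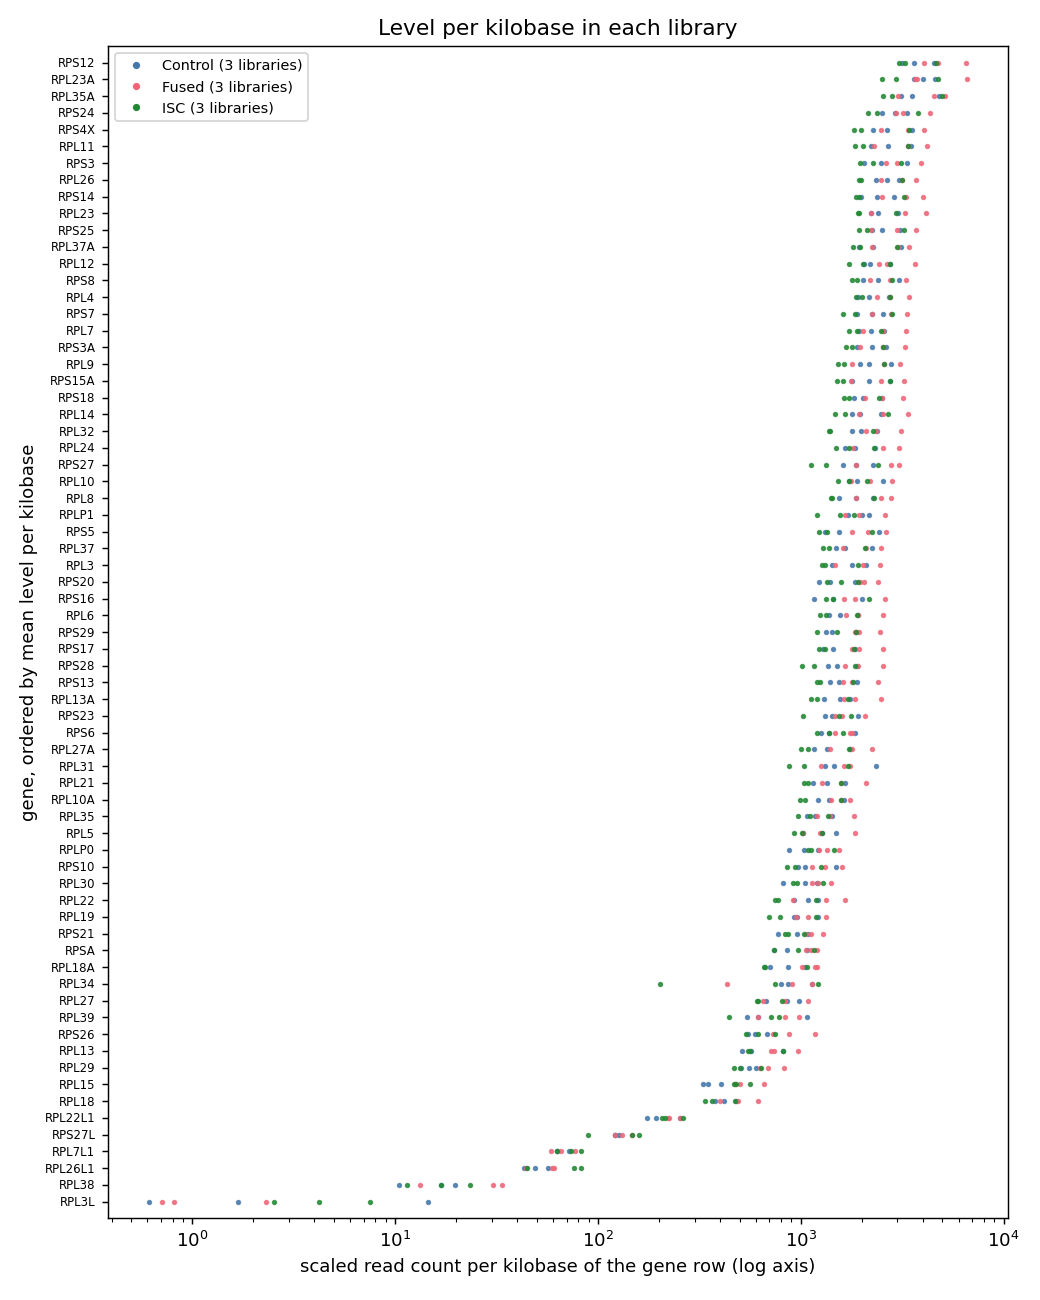
Level of each ribosomal protein gene per kilobase of its gene row (scaled read count, log axis) in the 9 libraries; genes are ordered by their mean and colours mark the groups. Most genes lie within a narrow band around the median of 1718, with RPL38 and the paralogs below it, and RPL34 has 2 libraries far under its others.

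Whether assembly and annotation bear on these levels was not tested. Of the 70 rows, 20 lay on unplaced scaffolds, 2 (RPL18 and RPL39) joined intervals on more than 1 sequence, and 3 (RPL10L, RPL22 and RPS21) had a single interval. Ribosomal protein genes have many processed copies in mammalian genomes, and how the authors assigned reads that match several places is a point on which nothing is given in the sources used here. The span of 6 members overlapped another row, 5 of them on the opposite strand. The overlapping row of RPL15, NKIRAS1, had a mean of only 7.20, whereas those of RPS6 (GNG10, mean 149) and RPS18 (VPS52, mean 146) were higher.

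The share of reads in the set varied widely between the libraries of a group. In Control the share of all reads that fell into ribosomal protein rows was 6.29%, 4.45% and 5.28% (replicates 1 to 3). In Fused it was 6.49%, 5.12% and 7.15%, and in ISC it was 6.10%, 3.49% and 3.72%. The 95% Wilson interval of each share reached at most 0.0435 percentage points to either side and covers counting error only. The means were 5.34% ± 0.923 in Control, 6.25% ± 1.04 in Fused and 4.44% ± 1.45 in ISC (SD, n = 3 each), and the ranges of all 3 groups overlapped. The highest share was 2.05 times the lowest.

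**Figure D2:**
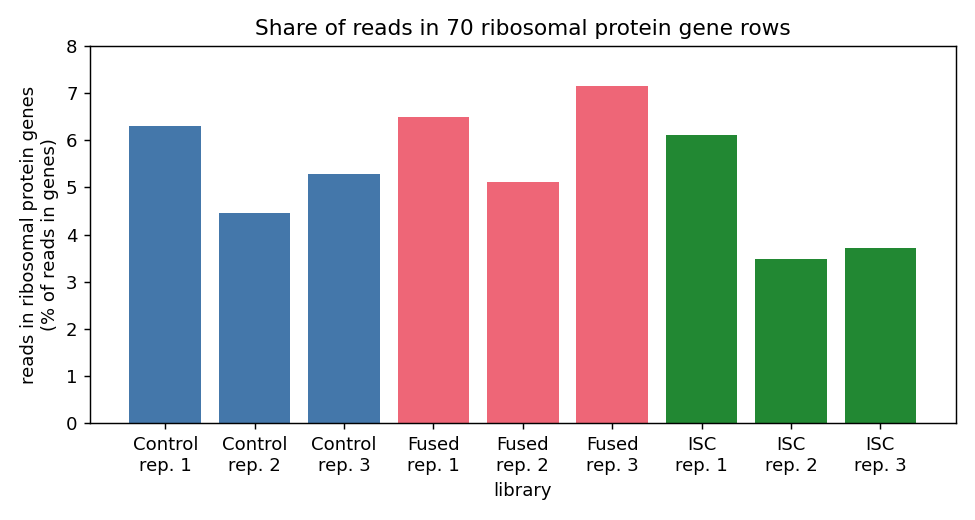
Share of the reads in genes that fell into the 70 ribosomal protein rows, in percent, 1 bar per library, coloured by group. Fused replicate 3 is highest with 7.15% and ISC replicates 2 and 3 are lowest with 3.49% and 3.72%, while ISC replicate 1 stands beside Control replicate 1.

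Gene by gene, the members moved together. For each gene the mean of log2(value + 1) over the 9 libraries was subtracted, and the median of these deviations over the 68 genes was 0.23, -0.26 and -0.07 in Control replicates 1 to 3, 0.20, -0.05 and 0.52 in Fused, and 0.19, -0.37 and -0.39 in ISC. Of the 68 genes, 60 were highest in Fused replicate 3, while 30 were lowest in ISC replicate 2, 25 in ISC replicate 3 and 9 in Control replicate 2. In each library between 52 and 64 of the 68 genes lay within 0.2 of the library's median. The median SD of a member over the libraries was 0.329 on the log2 scale, and it was 0.107 once the library median had been subtracted. That median came from these same 68 genes, which in itself tends to lower their SD. Counting error alone gave a median of 0.044. The 500 other genes of the same range of mean value (376 to 2352) had a median SD of 0.442, with nothing subtracted. Their highest and lowest libraries were not counted, so how far other genes move together was not compared. RPS18, a small-subunit protein chosen here after its values were seen, kept closest to the set, with an SD of 0.035 after subtraction and values of 1770, 1287 and 1422 in Control, 1772, 1448 and 2247 in Fused, and 1698, 1141 and 1208 in ISC.

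**Figure D3:**
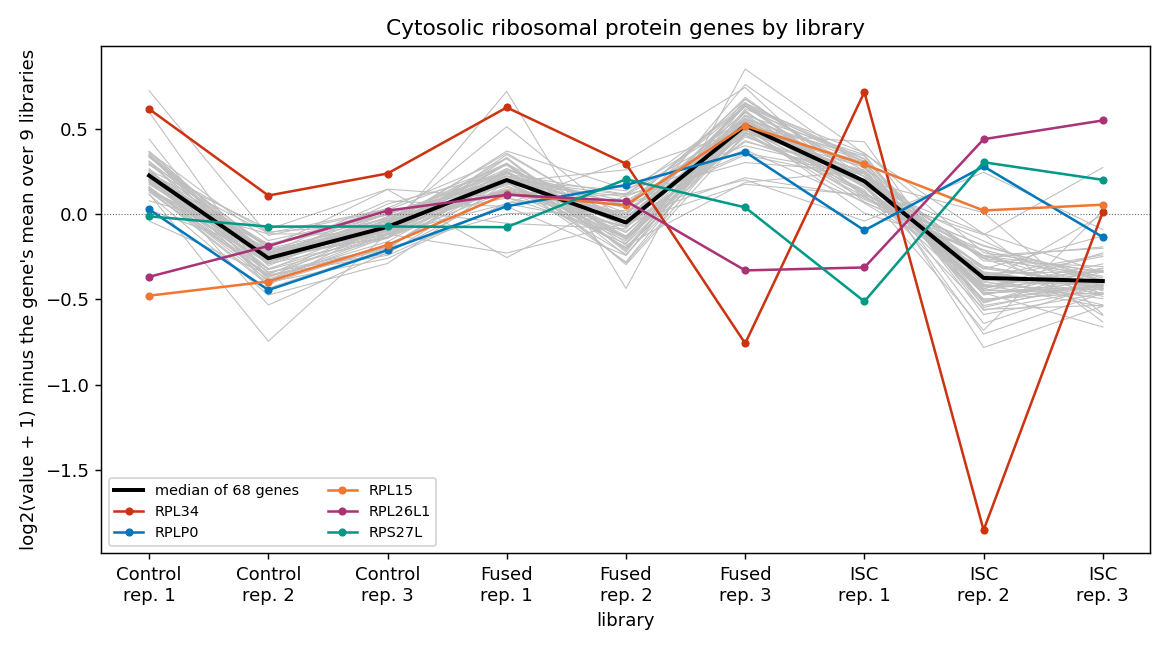
Deviation of log2(value + 1) from the gene's own mean over the 9 libraries, 1 grey line per gene for 68 genes, with the median in black and 5 genes that leave it in colour; lines join libraries only to let a gene be followed. The median runs from -0.39 in ISC replicate 3 to 0.52 in Fused replicate 3, and RPL34 drops in Fused replicate 3 and ISC replicate 2.

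Other features of the libraries were compared with the level of the set, without a test. The ligament markers took 1.73%, 2.98% and 1.70% of the reads in Control, 1.01%, 2.79% and 0.474% in Fused, and 2.17%, 6.48% and 4.92% in ISC. The library with the smallest ligament share, Fused replicate 3, was thus the one with the highest ribosomal protein share, and the pair with the largest ligament shares, ISC replicates 2 and 3, had the lowest. Between these ends the order was not kept. ISC replicate 1, with 2.17% in ligament markers, had a ribosomal protein share of 6.10%, and Control replicate 3, with 1.70%, had 5.28%. The share is a sum in which collagens weigh most, and its markers did not move alike. COL3A1 and FMOD were highest in ISC replicates 2 and 3, but FBLN5 had 132 and 182 there, against 306, 397 and 338 in Control. In Fused replicate 2, COL1A1 had 18111 and COL1A2 19631, while ELN had 265. Reads of mitochondrially encoded genes took 7.77%, 5.56% and 7.87% in Control, 9.82%, 6.64% and 14.5% in Fused, and 6.63%, 4.29% and 5.86% in ISC. Haemoglobin was counted from the rows of HBB2, HBG1, HBG2 and HBZ, and nearly all of it was HBB2. Alpha-globin had no row under the names sought and was not counted. Haemoglobin genes took 5.64% in Fused replicate 2, 6.41% in Fused replicate 3 and 5.00% in ISC replicate 2, and at most 1.55% elsewhere. These 3 libraries had ribosomal protein medians of -0.05, 0.52 and -0.37, so a high haemoglobin share went with both a high and a low level of the set. The part of tissue composition in the level of the set was not tested. With haemoglobin and mitochondrial genes left out of the total, the mean shares were 5.77% in Control, 7.40% in Fused and 4.79% in ISC.

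Within a library, the median deviations of the large-subunit and the small-subunit genes differed by 0.002 to 0.074 on the log2 scale, given without a test. In the large subunit, RPL4, which lines the exit tunnel (chromosome 17:5897000-5901239), had 4061, 2852 and 3240 in Control, 4119, 3537 and 5124 in Fused, and 4113, 2989 and 2778 in ISC. RPL3, which reaches to the peptidyl transferase centre (chromosome 4:84189009-84193225), had 2824, 1906 and 2393 in Control, 2721, 1991 and 3295 in Fused, and 2566, 1712 and 1763 in ISC. Both followed the set: Fused replicate 3 was highest, and the 3 groups overlapped. RPL13A, a large-subunit protein that also acts in translational silencing in human myeloid cells, ranged from 1433 in ISC replicate 3 to 3185 in Fused replicate 3. RPL10, a late-joining protein of the large subunit, ranged from 1319 to 2441, with the same libraries at its ends. RPL39, a small protein of the exit tunnel, ranged from 267 in ISC replicate 2 to 650 in Control replicate 1.

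The MDM2-binding proteins did the same. RPL5 (chromosome 13:71706016-71716108) had 1613, 1108 and 1374 in Control, 1342, 1100 and 1986 in Fused, and 1368, 1098 and 994 in ISC. RPL11 (chromosome 13:129568947-129572752) had 2223, 1416 and 1712 in Control, 2150, 1476 and 2681 in Fused, and 2166, 1180 and 1290 in ISC. In each group the replicates of both genes spread over a range that overlapped the other groups.

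In the small subunit, RPS3, which lies at the entry of the mRNA channel (chromosome 1:141307938-141313243), had 2961, 1830 and 2199 in Control, 2663, 2327 and 3485 in Fused, and 2785, 2017 and 1748 in ISC. RPS12 (chromosome 12:123074932-123077422) had 2556, 1770 and 2044 in Control, 2671, 2278 and 3677 in Fused, and 2613, 1843 and 1718 in ISC. RPS6, the substrate of the S6 kinases downstream of mTOR, ranged from 1097 in ISC replicate 2 to 1682 in Control replicate 1. RPS4X ranged from 1632 in ISC replicate 2 to 3615 in Fused replicate 3. RPS14, whose loss causes the anaemia of a human myelodysplastic syndrome, ranged from 1325 in ISC replicate 2 to 2832 in Fused replicate 3. RPSA, which also serves as a laminin receptor (chromosome 9:4323273-4328491), ranged from 831 in Control replicate 2 to 1360 in Fused replicate 3.

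The stalk recruits elongation factors to the ribosome and is formed by RPLP0 as its base with RPLP1 and RPLP2; RPLP2 was not analysed here. RPLP1 (unplaced scaffold Un0095:518993-520702) had 1149, 903 and 1063 in Control, 1028, 878 and 1374 in Fused, and 964, 830 and 636 in ISC. It deviated from the library median of the set by 0.03, 0.17 and 0.22 in Control and by -0.10, -0.08 and -0.003 in Fused. In ISC its deviations were -0.19, 0.16 and -0.20 on the log2 scale. RPLP0 (chromosome 21:12356741-12360138) had 1376, 992 and 1166 in Control, 1395, 1521 and 1739 in Fused, and 1264, 1640 and 1230 in ISC. In ISC replicate 2, where most members were near their lowest, RPLP0 was at its second highest value, 0.65 above the library median of the set on the log2 scale. Per length, RPLP0 stood at 56.1%, 51.4% and 51.4% of RPLP1 in Control, at 63.5%, 81.1% and 59.3% in Fused, and at 61.4%, 92.6% and 90.5% in ISC. All 6 operated libraries lay above all 3 Control libraries in this ratio, which was looked at after the values were seen and is given without a test. Both genes entered it. RPLP0 deviated from the library median by -0.20, -0.19 and -0.14 in Control, and by -0.15, 0.22 and -0.16 in Fused. In ISC it deviated by -0.29, 0.65 and 0.26. How often other gene pairs separate in this way was not counted.

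RPL34, a large-subunit protein, left the set in 2 libraries. Its row (chromosome 15:40925825-40928104, 4 intervals) held 520, 366 and 400 in Control, 524, 416 and 200 in Fused, and 558, 93.1 and 342 in ISC. It was low in Fused replicate 3 and ISC replicate 2 and lay between 342 and 558 in the 7 others. Relative to the library median of the set, it deviated by -1.28 in Fused replicate 3, by -1.48 in ISC replicate 2 and by 0.31 to 0.52 elsewhere, on the log2 scale. The ratio of its value to that of RPL35A was 0.0877 and 0.0827 in the low libraries and 0.245 to 0.311 in the others. Both low libraries were among the 3 rich in haemoglobin, and the third, Fused replicate 2, had 416. Its replicates thus differed by up to 5.99-fold, and no group stood apart.

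After RPL3L and RPL34, the members with the largest SD over the libraries were RPL38 (0.565), RPS27 (0.475) and RPL31 (0.428 on the log2 scale). RPS27, a zinc-finger protein of the small subunit (chromosome 13:38524774-38526041), had 1027, 727 and 845 in Control, 1250, 845 and 1371 in Fused, and 1082, 508 and 602 in ISC. RPL31, a protein near the tunnel exit (chromosome 2:91339733-91344942), had 1276, 708 and 785 in Control, 943, 680 and 879 in Fused, and 922, 474 and 560 in ISC. RPS27 had the pattern of the set with a wider swing, whereas RPL31 was highest in Control replicate 1.

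The paralogs did not follow the set. RPL26L1, the paralog of RPL26 (chromosome 3:54013959-54023967), had 33.0, 37.5 and 43.5 in Control, 46.5, 45.3 and 33.9 in Fused, and 34.3, 58.5 and 63.2 in ISC. It was highest in ISC replicates 2 and 3, where the set was lowest. Per length it stood at 3.93% and 4.17% of RPL26 in these libraries and at 1.19% to 2.38% in the 7 others. RPL26 itself had 1211 and 1233 there, against 1458 to 2308 in the others, so the ratio holds the change of both.

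RPS27L, a p53 target in human cells (chromosome 17:9113426-9116840), had 71.6, 68.7 and 68.7 in Control, 68.5, 83.5 and 74.3 in Fused, and 50.4, 89.5 and 83.3 in ISC. Per length it reached 14.05% and 11.04% of RPS27 in ISC replicates 2 and 3, against 3.72% in ISC replicate 1 and 4.33% to 7.88% in the other groups. RPL22L1 (chromosome 14:65759025-65762442), whose synthesis RPL22 holds down in mouse, had 157, 108 and 119 in Control, 137, 139 and 157 in Fused, and 133, 162 and 128 in ISC. Per length it stood at 35.0% and 27.0% of RPL22 in ISC replicates 2 and 3 and at 15.4% to 24.6% in the others. RPL22 itself had 364 and 373 in ISC replicates 2 and 3, against 444 to 804 in the others, so the ratio rose with a lower partner. The RPL22 row has a single interval. RPL7L1 (chromosome 12:32409324-32418151), a relative of RPL7, ranged from 168 to 239 and from 2.30% to 4.35% of RPL7 per length, with ISC replicate 3 highest in both. RPL7 had 1763 and 1931 in ISC replicates 2 and 3, against 1964 to 3366 in the others. In the ratio of each of these pairs ISC replicate 1 stood below ISC replicates 2 and 3.

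RPL3L was near the counting limit in most libraries. Its row (unplaced scaffold Un0603:86626-92051) held 20.7, 2.40 and 0.87 in Control, 1.16, 1.01 and 3.28 in Fused, and 10.7, 3.58 and 6.02 in ISC. The highest values came from Control replicate 1 and ISC replicate 1. Of 10 skeletal muscle markers 6 had a row, and they took up to 0.157% of the reads in Control, 0.00146% in Fused and 0.0391% in ISC; MB was at 0 in 8 libraries. ACTA1, the skeletal actin, had 915 in Control replicate 1 and 153 in ISC replicate 1, against 82.6 in Control replicate 3 and at most 9.1 in the others. Control replicate 3, with a muscle share of 0.0210%, had the lowest RPL3L value, while ISC replicate 3, with 0.000726%, had a higher one than 6 of the other libraries. The part of muscle RNA in the RPL3L values was not tested.

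The first comparison asked whether ribosomal protein genes differ at the stress-concentrated level from sham ligament. Of 69 members tested, 55 had a log2 change below 0 and 14 above 0 in ISC relative to Control, and 0 passed the test (limma on log2(value + 1), Benjamini-Hochberg adjusted p under 0.05). Over all genes, 0.0488% of 14348 were called, and 7140 had a log2 change below 0. The members shared a swing over the libraries, so their sign counts are not separate observations. The median log2 change of the members was -0.14, against 0.00 over all tested genes. It was -0.01 without Control replicate 1, -0.26 without Control replicate 2, -0.35 without ISC replicate 1, -0.04 without ISC replicate 2 and -0.06 without ISC replicate 3, so it depended on which library was present.

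By subunit, the median log2 change between ISC and Control was -0.18 in the large and -0.12 in the small subunit, and 0.15 in the 5 tested paralogs, each with a change above 0. The lowest log2 changes were those of RPL34 (-0.70), RPL31 (-0.51), RPLP1 (-0.37) and RPL32 (-0.32). The highest were those of RPL3L (0.48), RPL15 (0.47), RPL26L1 (0.40) and RPLP0 (0.23). RPL34 changed sign, to 0.04, without ISC replicate 2. RPL3L ran from -0.25 without Control replicate 3 to 1.52 without Control replicate 1, and was also below 0 with edgeR (-0.21) and DESeq2 (-0.22), so its direction depended on the test and on which library was present. RPL15, a large-subunit protein (chromosome 14:10251040-10253592), was the single member whose groups did not overlap. It had 263, 279 and 324 in Control and 449, 372 and 381 in ISC, a log2 change of 0.47 with a standard error of 0.163 (95% interval 0.10 to 0.85) that did not pass (limma, adjusted p = 0.363). Groups that did not overlap were found for 9.54% of all tested genes with ISC higher and for 8.73% with ISC lower. An unadjusted p under 0.05 was found for 11.5% of all tested genes and for 1 of the 69 members.

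The second comparison set the fused level against sham ligament; it shares the Control libraries with the first, so a low or high Control library moves both. Here 66 of 69 tested members had a log2 change above 0 and 3 below 0, and 0 passed the test, although 6.58% of 14686 genes were called. Over all tested genes, 7627 had a log2 change above 0. The median log2 change of the members was 0.25, against 0.02 over all tested genes. It was 0.41 without Control replicate 1, 0.14 without Control replicate 2, 0.40 without Fused replicate 2 and 0.12 without Fused replicate 3. The small subunit had a median of 0.31 and the large subunit of 0.24. An unadjusted p under 0.05 was found for 3 members, RPL15, RPS26 and RPS20, and for 22.8% of all genes.

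Groups did not overlap, with Fused higher, for 5 members (RPL15, RPL29, RPLP0, RPS20 and RPS26), and for 16% of all tested genes. No member had groups apart with Fused lower, beside 13.3% of all tested genes. RPL15 had 398, 380 and 526 in Fused, all above the Control values given above. Its log2 change of 0.58 (standard error 0.179, 95% interval 0.17 to 0.99) gave the smallest adjusted p among the members, 0.0937 (limma). RPS26, which lies near the mRNA exit of the small subunit (chromosome 4:39593167-39593668), had 162, 130 and 141 in Control and 174, 207 and 280 in Fused, a log2 change of 0.58 (standard error 0.20, limma adjusted p = 0.122). RPS20, a small-subunit protein (chromosome 3:71607722-71609256), had 1061, 704 and 801 in Control and 1117, 1173 and 1378 in Fused, a log2 change of 0.53 (standard error 0.219, limma adjusted p = 0.191). With array weights, limma called RPL15 (adjusted p = 0.0383) and RPS26 (0.0330), and without Fused replicate 1 it called RPS26 (0.0329). RPL38 had the largest log2 change, 0.62, at low values and with overlapping groups (limma adjusted p = 0.420). The lowest were RPL3L (-0.97), RPL34 (-0.27), RPL31 (-0.11) and RPL7L1 (0.02). RPL34 was at 0.14 without Fused replicate 3, and without Control replicate 1 RPL3L was at 0.07 and RPL31 at 0.15. RPL31 was above 0 in 5 of 22 alternatives and RPL7L1 below 0 in 7 of 22.

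The third comparison set the stress-concentrated level against the fused level. All 37 members of the large subunit and all 25 of the small subunit had a log2 change below 0 in ISC relative to Fused, as had RPLP0 and RPLP1. Over all tested genes, 8571 of 15404 were below 0. The test was passed by 0 of 69 tested members, beside 0.279% of all tested genes. The median log2 change of the members was -0.41, against -0.07 over all tested genes; without Fused replicate 3 it was -0.25. The lowest log2 changes were those of RPS27 (-0.71), RPS28 (-0.63), RPL32 (-0.62) and RPL13A (-0.57). For RPS27 the standard error was 0.347 and the 95% interval ran from -1.52 to 0.10 (limma adjusted p = 0.558). Groups did not overlap, with ISC lower, for RPS20 and RPS21, and for 7.35% of all tested genes; with ISC higher, for RPL3L, and for 8.08% of all tested genes. An unadjusted p under 0.05 was found for 1 of the 69 members and for 10.3% of all tested genes. The highest log2 changes were found among the paralogs: RPL3L (1.45), RPL26L1 (0.27), RPL7L1 (0.12) and RPL22L1 (-0.04). RPL3L, with a standard error of 0.576, had the smallest adjusted p of the members, 0.430 (limma), at values near the counting limit.

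**Figure D4:**
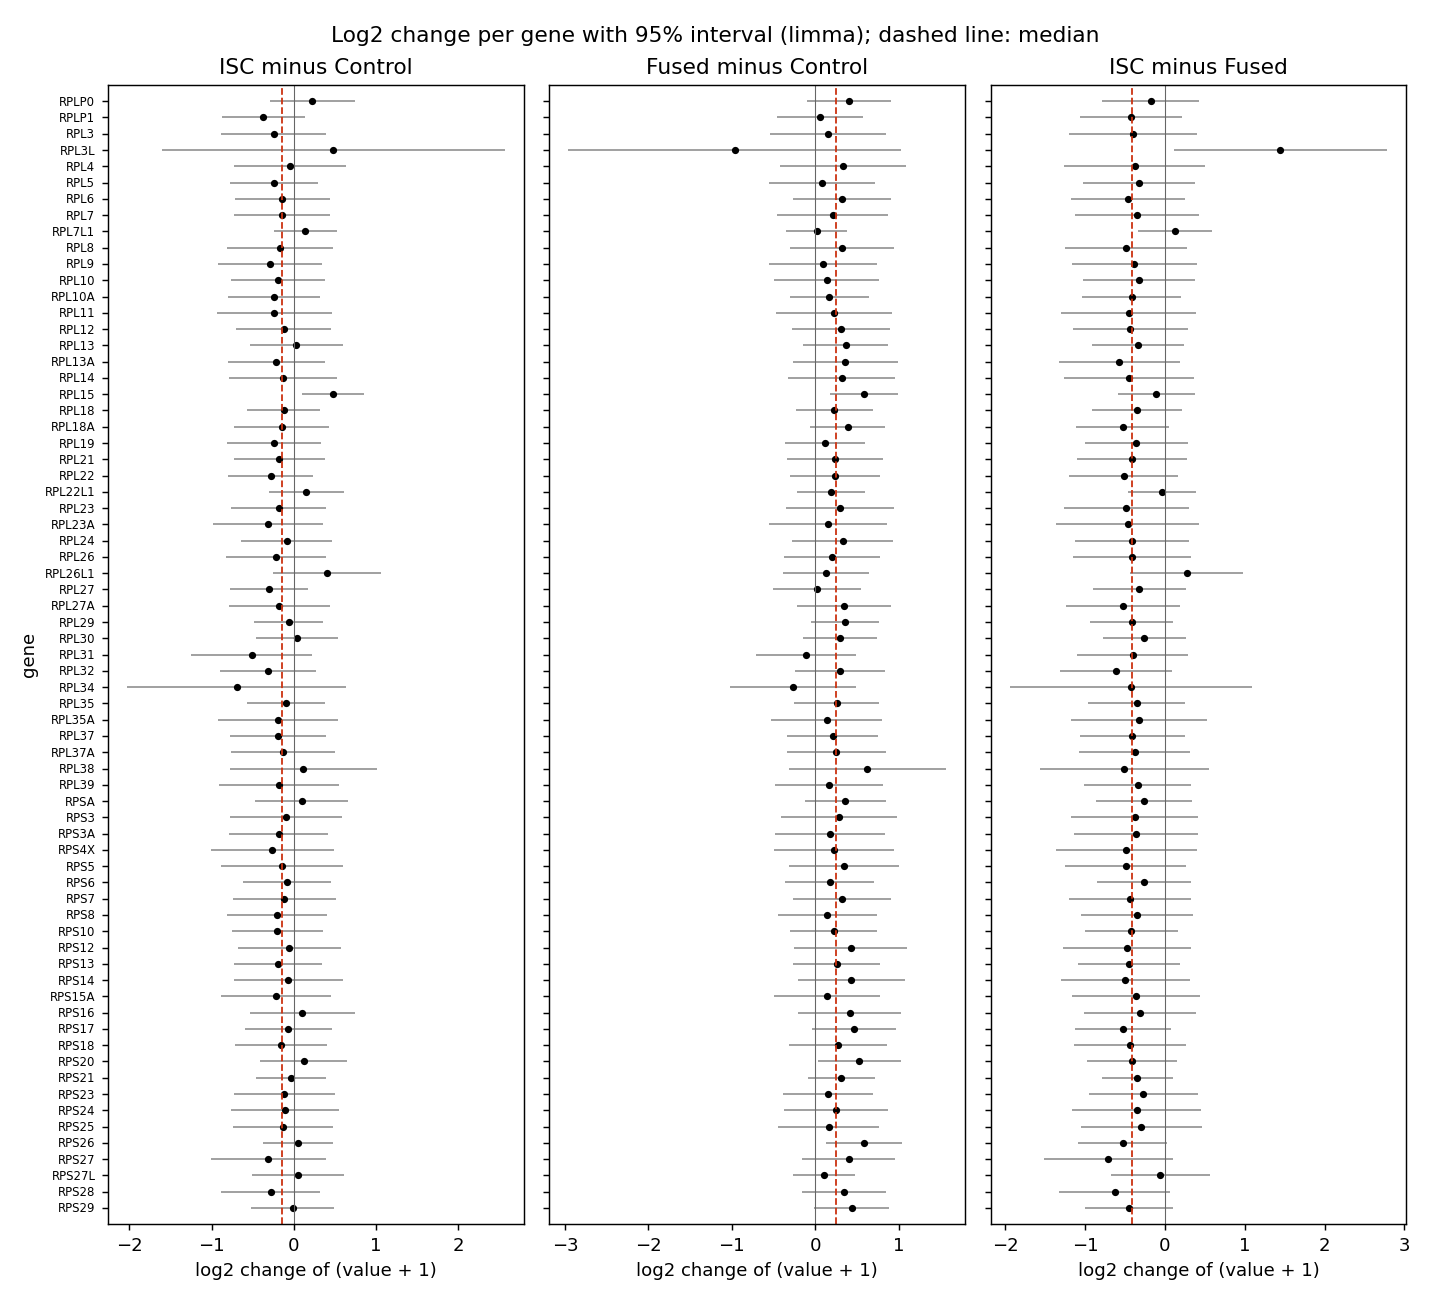
Log2 change of (value + 1) per gene with its 95% interval from limma, for 69 tested genes in each of the 3 comparisons; the dashed line marks the median of the genes. The medians are -0.14 for ISC minus Control, 0.25 for Fused minus Control and -0.41 for ISC minus Fused, and the interval excludes 0 for 1, 3 and 1 of the genes.

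Count-based tests gave the same number of called members. On reads recovered from the values, edgeR called 0 members in each comparison beside 0.0348%, 6.78% and 0.188% of all genes (ISC against Control, Fused against Control, ISC against Fused). DESeq2 called 0 members beside 1.61%, 9.34% and 2.06% of the genes. In the authors' deposited table no member was called either, while 2.58%, 6.01% and 2.25% of all rows were. The smallest q-values of members in the authors' deposited table were 0.829 for RPL15, 0.391 for RPS26 and 0.697 for RPL3L, in the same order of comparisons.

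Other genes whose mRNAs are known for a terminal oligopyrimidine tract had library medians of the same sign. These 16 genes, most of them translation factors and some, such as NPM1, NAP1L1, HNRNPA1 and TPT1, of other function, had library medians between -0.22 and 0.41, with the sign of the ribosomal protein median in 9 of 9 libraries. EEF1A1, which carries aminoacyl-tRNA to the ribosome, had 30521, 23081 and 25981 in Control, 30827, 20950 and 34259 in Fused, and 27934, 20846 and 21612 in ISC. Its highest library was Fused replicate 3 and its lowest ISC replicate 2, as for many ribosomal proteins. PABPC1, the poly(A)-binding protein, did not follow, with 852, 1005 and 1018 in Control, 1043, 1805 and 1576 in Fused, and 939, 1877 and 995 in ISC: it was highest in ISC replicate 2. HNRNPA1, BTF3 and NAP1L1 were above their means in that library as well, with 1569, 487 and 517 against 1407, 451 and 508. The rest of the 16 genes were below theirs. None of the 16 was called in any comparison, beside 0.0488%, 6.58% and 0.279% of all tested genes (ISC against Control, Fused against Control, ISC against Fused). Their median log2 changes were -0.05 for ISC against Control, 0.25 for Fused against Control and -0.26 for ISC against Fused.

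Of the ribosomal proteins outside the name pattern, RACK1 and FAU followed the set and RPL36AL did not. RACK1, a scaffold on the small subunit, had 2487, 1630 and 1794 in Control, 2023, 1775 and 2388 in Fused, and 2049, 1624 and 1443 in ISC. RPL36AL, in human a retrotransposed copy of RPL36A, had 27.3, 26.4 and 30.4 in Control, 49.9, 39.2 and 50.3 in Fused, and 49.3, 47.7 and 58.2 in ISC. All 6 operated libraries were above the Control libraries, as Fused was for 16% and ISC for 9.54% of all tested genes. How many genes had both was not counted. The log2 changes of RPL36AL were 0.70 in Fused (standard error 0.218, limma adjusted p = 0.0944) and 0.86 in ISC (standard error 0.212, limma adjusted p = 0.314), and neither passed.

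**Figure D5:**
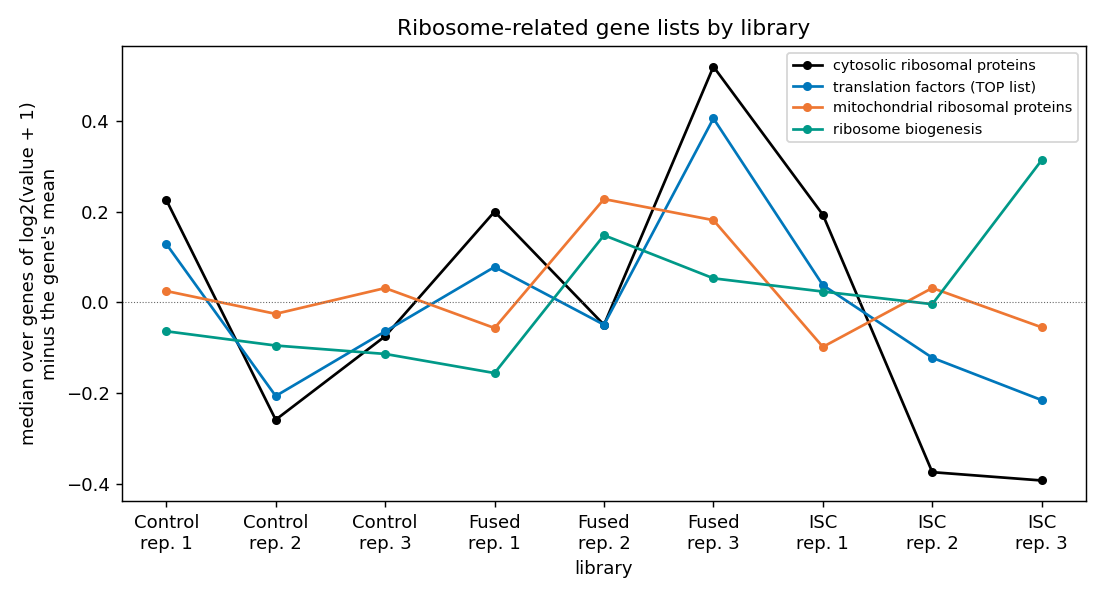
Median over the genes of a list of the deviation of log2(value + 1) from each gene's mean, by library; lines join libraries only to let a list be followed. Cytosolic ribosomal proteins run from -0.39 to 0.52 and the genes with a terminal oligopyrimidine tract (drawn as translation factors) from -0.22 to 0.41 with the same sign in all 9 libraries, while mitochondrial ribosomal proteins and biogenesis genes have smaller swings of other shape.

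Mitochondrial ribosomal proteins, which build the separate ribosome of that organelle, had library medians between -0.10 and 0.23, with the sign of the cytosolic set in 4 of 9 libraries. Of 70 tested, 0 were called in any comparison, beside the 0.0488%, 6.58% and 0.279% of all tested genes. Their median log2 changes were -0.05, 0.12 and -0.15 in the same order of comparisons.

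Genes of ribosome biogenesis, 28 with a row, had library medians between -0.16 and 0.31, with the sign of the ribosomal proteins in 5 of 9 libraries. DDX21, a nucleolar RNA helicase, was the single gene of the 28 that was called, in Fused against Control, where 6.58% of all tested genes were. It had 76.4, 89.4 and 78.3 in Control and 125, 132 and 120 in Fused (log2 change 0.63, standard error 0.152, limma adjusted p = 0.0473). This call was kept in 5 of 22 alternatives, and in leaving out 1 library it was kept only without Fused replicate 1, with adjusted p between 0.0432 and 0.149. In ISC, DDX21 had 98.6, 116 and 189, and was not called against Control (limma adjusted p = 0.396).

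Among 14 regulators of ribosomal protein synthesis, RPS6KA1, a kinase of the ERK pathway that can phosphorylate RPS6, was the single one called, in Fused against Control. It had 4.7, 2.4 and 4.3 in Control, 22.1, 135 and 101 in Fused, and 15.01, 141 and 12.0 in ISC. The log2 change between Fused and Control was 3.86 (standard error 0.629, limma adjusted p = 0.0172). The call was kept in 15 of 22 alternatives. In leaving out 1 library it was kept without Control replicate 3 and without Fused replicate 1, and lost without any of the other 4 (limma adjusted p between 0.000153 and 0.0973 over all 6). The 3 highest values were those of the haemoglobin-rich libraries, and without these the log2 change was 2.30 (limma adjusted p = 0.219).

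MTOR had 49.0, 44.7 and 52.2 in Control, 55.7, 67.4 and 53.6 in Fused, and 63.3, 77.6 and 89.3 in ISC. LARP1 had 189, 209 and 234 in Control, 282, 350 and 303 in Fused, and 263, 341 and 301 in ISC. For both genes all operated libraries lay above the Control libraries, as Fused did for 16% and ISC for 9.54% of all tested genes, and neither was called: the log2 changes of LARP1 were 0.56 in Fused (standard error 0.159, limma adjusted p = 0.0718) and 0.51 in ISC (standard error 0.169, limma adjusted p = 0.357), and MTOR had 0.27 and 0.64. EIF4EBP2, a repressor of translation that mTOR inactivates, had 1291, 1281 and 1516 in Control and 1038, 1109 and 922 in ISC. Its groups did not overlap, with ISC lower, as for 8.73% of all tested genes, and it was not called (log2 change -0.41, limma adjusted p = 0.452).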

How the data were processed

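Per the labels' protocols, libraries were prepared from total RNA with a strand-keeping kit. Per the series' design text, reads were mapped to oryCun2 with TopHat, which the submitters' processing notes also name, and analysed by Cufflinks. Not given in the sources used here were versions, counting tool, strand setting and annotation. Deposited by the authors were 3 tables with the same values of all 9 libraries: a normalized signal per gene, made by the authors by scaling read counts to a common library size. Division by the value of 1 read gave whole numbers for 100% of values in every library (tolerance 1e-06), and these were taken as reads. The authors' deposited p-values, q-values, score and calls were used only where named, and coordinates are those of the deposited tables. A row without a gene name (1 row) was left out.

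Each comparison used limma 3.58.1 in R 4.3.3 with a mean-variance trend on log2(value + 1), over genes that reached a value of 1 in 3 or more of the 6 libraries compared; fold changes on this scale understate the change of low genes. Calls required a two-sided p under 0.05 after Benjamini-Hochberg adjustment over all tested genes. Alternatives on recovered reads used edgeR 4.0.16 and DESeq2 1.42.0. The fits were also run on simulated data as a check of the code, and how well they recover small changes is not given here. Sample titles supplied the replicate numbers. The members, the gene lists and the tests were chosen with earlier results of these data known, so counts and medians of lists are descriptions. Genes named are, per comparison, the called members and the 4 with the largest and the 4 with the smallest log2 change; over all libraries, the 5 with the largest mean, the 5 with the smallest mean and the 5 with the largest SD; and a panel of well-known members. RPLP2, RPL39L and RPS19 of that panel were not analysed here. Genes whose groups do not overlap, RPS18, and genes named for a ratio or for their level per kilobase were named after their values were seen.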

Additional observations from a re-analysis of the deposited data

How the results depend on the processing

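Over 22 alternatives per comparison, the number of called members was 0 in all for ISC against Control and ISC against Fused, and 0 in 20 for Fused against Control; it was 2 there with array weights and ranged from 0 to 1 when a library was left out. The sign of the median change was the same in all 22: it lay between -0.35 and -0.01 for ISC against Control, 0.12 and 0.43 for Fused against Control, and -0.66 and -0.25 for ISC against Fused. Leaving out 1 library gave -0.35 to -0.01, 0.12 to 0.41 and -0.60 to -0.25. Without the 3 haemoglobin-rich libraries the medians were -0.04, 0.26 and -0.29, where a group left with 1 library is assumed to vary like the other. Taking haemoglobin and mitochondrial reads out moved the median of all genes to -0.14, 0.11 and -0.29, and scaling to the library total, an alternative added after seeing the data, to -0.14, -0.00 and -0.18; the members' medians relative to all genes stayed between -0.36 and -0.02, 0.11 and 0.50, and -0.64 and -0.19 over the alternatives. Members with an unadjusted p under 0.05 numbered 0 to 8, 1 to 20 and 0 to 35, with the most in Fused against Control and ISC against Fused under quantile normalization. The cause was not tested. In the main fit they numbered 1, 3 and 1 of 69, beside 11.5%, 22.8% and 10.3% of all tested genes. For the alternatives the share of all genes is not given here, so their counts are no result about the members. The mean share of reads in the set was 7.40% in Fused with haemoglobin and mitochondrial genes left out of the total. Deviations of same-numbered libraries correlated between -0.11 and 0.33. Libraries of different numbers were not set beside them, so whether the replicate numbers pair the samples was not settled. With the replicate number as a block, 0 members were called in each comparison and the medians were -0.14, 0.25 and -0.41. With 3 libraries per group, the smallest change that could be called was not computed for the members.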

Other observations

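Among 8020 rows named only by a locus identifier, 764 could be given a symbol from RefSeq (assembly mOryCun1.1, whose coordinates were not used). Of these, 4 are cytosolic ribosomal proteins whose symbols fit the name pattern of the set. They are not among its members because their rows carry locus identifiers. RPL7A, RPL36A and RPS27A followed the set, with an SD of 0.05, 0.13 and 0.08 on the log2 scale after subtraction of the library median and with mean values of 1115, 543 and 1322. RPL17, a protein at the tunnel exit whose row lies at chromosome 9:90425884-90429093 of oryCun2, did not. It had 1563, 1620 and 1887 in Control, 2206, 619 and 2804 in Fused, and 855, 1319 and 1442 in ISC. Relative to the library median of the set it deviated by -1.19 in Fused replicate 2, by -0.96 in ISC replicate 1 and by -0.13 to 0.45 in the others. The low libraries of RPL17 were other ones than those of RPL34.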
